A study of Mus musculus with 3 samples.

Results

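Granule-low blood neutrophils were taken as cells in which the alarmin genes S100a8 and S100a9 together gave at least 5% of the transcripts counted and the specific granule genes Camp, Ltf and Ngp together gave under 1%. Transcripts were counted as unique molecular identifiers (UMIs), and a cell was kept with 500 UMIs and 200 genes or more, unless mitochondrially encoded genes gave over 10% of its UMIs. Of 29754 cells that passed these filters, 2432 met the rule. They came from blood of C57BL/6J mice in 3 droplet libraries, all labelled 12 h. The HDCA+CLP library gave 1645 of these cells, the CLP library 551 and the Sham library 236. By their labels HDCA+CLP mice were given HDCA and CLP, CLP mice CMC and CLP, and the Sham label names none of these. The labels do not spell the names out. CLP is the usual abbreviation of cecal ligation and puncture, a mouse model of abdominal sepsis, and HDCA that of hyodeoxycholic acid, a bile acid. There was 1 library a group and the labels do not say how many mice stand behind it, so no difference between groups could be tested. All intervals are at 95%, cover the error of counting alone, and leave out differences between mice. Levels are given as counts per 1000000 UMIs of the cells described (CPM).

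Neutrophils mature in the bone marrow, where specific granule proteins such as cathelicidin (Camp) and lactoferrin (Ltf) are made in late precursors, and the transcripts are lost again as the cell matures. Mature neutrophils carry the granulocyte colony-stimulating factor receptor Csf3r and the chemokine receptor Cxcr2, which draws them out of marrow and into inflamed tissue. During bacterial infection the marrow releases younger cells early, and neutrophils can make Cxcl2, a chemokine that attracts further neutrophils, Il1b, the cytokine interleukin-1β, and Cd14, the co-receptor for bacterial lipopolysaccharide.

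The values that chose the cells are given as a description. Their median share of S100a8 plus S100a9 was 25.9% in HDCA+CLP, 25.3% in CLP and 22.7% in Sham. Their median share of Camp, Ltf and Ngp was 0.314% in HDCA+CLP, 0.465% in CLP and 0% in Sham. No UMI of these 3 granule genes was found in 46 of the HDCA+CLP cells (2.796%), 18 of the CLP cells (3.27%) and 158 of the Sham cells (66.95%). The same rule therefore took in cells with a residue of granule transcripts in both CLP libraries, and mostly cells with none in Sham. Just inside the granule limit, at 0.8% to 1%, lay 222 HDCA+CLP cells, 115 CLP cells and 1 Sham cell. Just outside it, at 1% to 1.2%, lay 182, 133 and 2 cells of the same libraries. Just inside the S100 limit, at 5% to 6%, lay 26 HDCA+CLP, 9 CLP and 6 Sham cells, and just outside it, at 4% to 5%, 23, 23 and 7.

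Neutrophil genes were present in most of the cells. Csf3r was found in 86.6% of the HDCA+CLP cells, 79.7% of the CLP cells and 99.2% of the Sham cells. T cells of the same libraries, which should lack it, had it in 1.601%, 1.63% and 1.14% of cells. The median depth was 4969, 5173 and 4212 UMIs in granule-low cells and 4056, 4759 and 6746 in T cells. All 23 genes of a neutrophil identity list, which holds S100a8 and S100a9, were detected over the pooled cells of each library. By that measure all 11 T cell genes and all 9 NK cell genes listed were detected as well, so it does not tell cell types apart. The eosinophil genes Prg2 and Epx and the dendritic cell genes Clec9a and Cd209a were at 0 in the granule-low cells of all 3 libraries, as were Mcpt8, Fcer1a and Cpa3 of basophils and mast cells. Other genes of these lists were found. In HDCA+CLP, CLP and Sham, 4, 4 and 2 of 6 eosinophil genes were detected, summing to 2.44, 1.74 and 12.65 CPM. Of 7 dendritic cell genes 4, 3 and 4 were detected, summing to 114, 81.55 and 57.3 CPM. Of 7 basophil or mast cell genes 1, 0 and 0 were detected.

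Some of the cells also carried transcripts of other cell types. At least 3 UMIs of genes that define monocytes, T cells, B cells, NK cells, platelets or basophils were present in 128 HDCA+CLP cells (7.78%), 90 CLP cells (16.3%) and 33 Sham cells (13.98%). These cells are called marker-mixed here. Monocyte genes reached that level in 63, 44 and 14 cells, and T cell genes in 41, 36 and 12. Summed over 16 genes, the monocyte list stood at 999 CPM in HDCA+CLP, 1358 in CLP and 958 in Sham, which was 14.98%, 18.2% and 9.45% of its level in monocytes of the same library. The T cell list summed to 87.03, 266 and 406 CPM, the NK cell list to 366, 762 and 93.6 and the B cell list to 44.1, 54.9 and 435. Ratios of CLP over Sham and of HDCA+CLP over CLP that moved by over 1.5-fold when marker-mixed cells were left out are given both ways for the genes described.

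The 3 libraries held 42427093 to 95178381 UMIs in 7159 to 12205 barcodes, and the granule-low cells gave 9031664 UMIs in HDCA+CLP, 3445891 in CLP and 1185885 in Sham. HDCA+CLP and CLP shared 34 barcodes, CLP and Sham 26, and HDCA+CLP and Sham 17. A score against simulated doublets marked 5.78% of the granule-low cells in HDCA+CLP, 12.2% in CLP and 8.47% in Sham. Haemoglobin and other erythroid genes summed to 1841 CPM in HDCA+CLP, 876 in CLP and 4.22 in Sham. Erythroid transcripts were thus higher in both CLP libraries, and their part in the results was not tested.

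Granule-low cells made up the largest share of the cells kept in HDCA+CLP, at 13.7% (13.1% to 14.3%), against 5.08% (4.68% to 5.51%) in CLP and 3.42% (3.01% to 3.88%) in Sham. The order was another among cells high in S100a8 and S100a9. There the granule-low cells were 17.5% (16.8% to 18.3%) of 9386 cells in HDCA+CLP, 10.4% (9.56% to 11.2%) of 5313 cells in CLP and 92.2% (88.2% to 95.2%) of 256 cells in Sham. Granule-rich cells, with 1% or more of UMIs from Camp, Ltf and Ngp, numbered 7741, 4762 and 20. The Sham library thus held few neutrophils, nearly all granule-low, and both CLP libraries held many, mostly granule-rich. The labels call the samples mononuclear cells, a blood fraction from which mature neutrophils are usually depleted, and the labels do not say how many were lost from any of the libraries. The order of CLP and Sham among cells kept depended on the granule limit: at under 0.5% of granule transcripts the share was 2.67% in CLP and 3.35% in Sham. Without marker-mixed cells the share of cells kept was 12.6% in HDCA+CLP, 4.25% in CLP and 2.95% in Sham.

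**Figure D1:**
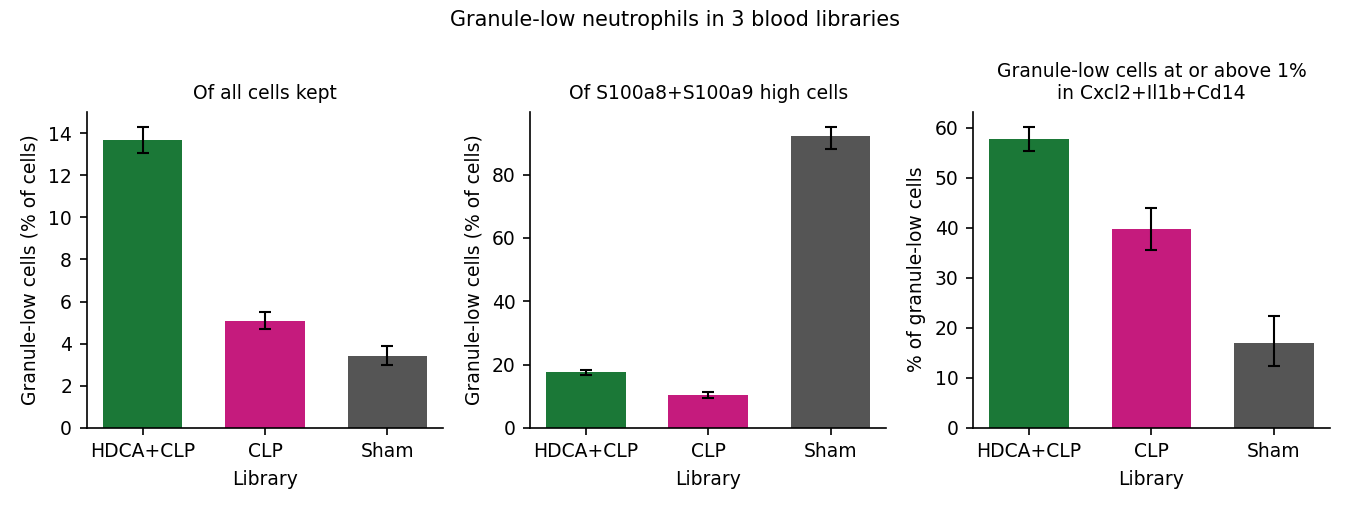
Granule-low cells as a percent of all cells kept (left) and of S100a8 and S100a9 high cells (middle), and the percent of granule-low cells with at least 1% of UMIs from Cxcl2, Il1b and Cd14 (right), 1 bar per library with 95% binomial intervals. The Sham bar is the lowest on the left, at 3.42%, the highest in the middle, at 92.2%, and the lowest on the right, at 16.9%. The 1% limit on the right was chosen after the data were seen.

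Cxcl2, Il1b and Cd14 did not follow 1 order across the libraries. Over all granule-low cells, Cxcl2 was higher in CLP than in Sham, and Il1b and the prostaglandin synthase gene Ptgs2 were lower. Cd14 was also higher in CLP, and its upstream stretch is not shown. The 3 inducible genes Cxcl2, Il1b and Ptgs2 were picked by these levels, and the stretches upstream of them are shown. Each is the 250 bases before the RefSeq gene start in GRCm38.p6, written 5′ to 3′ on the gene's own strand. Capitals mark matches to GGGNNTTTC, letters found in binding sites of NF-kappaB, searched on both strands.
Cxcl2, chr5:90903649-90903898, plus strand: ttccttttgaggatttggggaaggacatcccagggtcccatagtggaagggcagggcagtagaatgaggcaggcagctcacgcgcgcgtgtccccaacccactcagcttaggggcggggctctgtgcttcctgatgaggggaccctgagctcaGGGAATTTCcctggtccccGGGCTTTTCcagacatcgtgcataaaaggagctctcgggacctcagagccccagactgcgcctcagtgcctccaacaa
Il1b, chr2:129371140-129371389, minus strand: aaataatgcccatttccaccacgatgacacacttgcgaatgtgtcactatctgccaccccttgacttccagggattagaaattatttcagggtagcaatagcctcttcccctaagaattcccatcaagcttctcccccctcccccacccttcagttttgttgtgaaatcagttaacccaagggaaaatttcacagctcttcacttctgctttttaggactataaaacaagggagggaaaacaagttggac
Ptgs2, chr1:150099781-150100030, plus strand: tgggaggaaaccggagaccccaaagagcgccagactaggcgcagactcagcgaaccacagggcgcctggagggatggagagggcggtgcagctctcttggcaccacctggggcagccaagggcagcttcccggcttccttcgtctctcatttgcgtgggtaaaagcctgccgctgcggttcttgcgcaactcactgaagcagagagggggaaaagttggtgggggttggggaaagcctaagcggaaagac
The Cxcl2 stretch held 2 matches, both on the strand shown, and the Il1b and Ptgs2 stretches held 0. Of 32851 promoters in the same RefSeq table, 3.72% held a match in a stretch of the same length. A match is a description of these letters, and the lack of one says only that the letters are not in this window. Whether the matches bear on the levels was not tested.

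Cxcl2 stood at 8373 CPM in granule-low cells of HDCA+CLP, 6225 in CLP and 1666 in Sham. It was high in both CLP libraries and low in Sham, and the log2 ratio of CLP over Sham was 1.90 (1.83 to 1.97). Cd14 followed the same order, at 1401 in HDCA+CLP, 965 in CLP and 277 in Sham, with a log2 ratio of CLP over Sham of 1.80 (1.64 to 1.97). Il1b stood at 1666 in HDCA+CLP, 1109 in CLP and 2988 in Sham. Here Sham was the highest library, and the log2 ratio of CLP over Sham was -1.43 (-1.50 to -1.36). The receptor genes were also highest in Sham. Csf3r stood at 511 in HDCA+CLP, 348 in CLP and 1652 in Sham, a log2 ratio of CLP over Sham of -2.25 (-2.35 to -2.14). Cxcr2 stood at 774, 643 and 1683 in the same libraries, with a log2 ratio of -1.39 (-1.48 to -1.30). T cells of the 3 libraries had at most 50.7 CPM of Cxcl2, 11.4 of Cd14 and 10.4 of Il1b.

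All 5 genes were somewhat higher in HDCA+CLP than in CLP. The log2 ratio of HDCA+CLP over CLP was 0.43 (0.41 to 0.45) for Cxcl2, 0.59 (0.54 to 0.64) for Il1b and 0.54 (0.48 to 0.59) for Cd14. It was 0.55 (0.46 to 0.65) for Csf3r and 0.27 (0.20 to 0.34) for Cxcr2. Of the 5, Il1b alone passed the 1.5-fold limit used for this comparison. Without marker-mixed cells the ratios were 0.19 for Cxcl2, 0.30 for Il1b, 0.35 for Cd14, 0.33 for Csf3r and 0.00 for Cxcr2, and none of the 5 passed it.

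**Figure D2:**
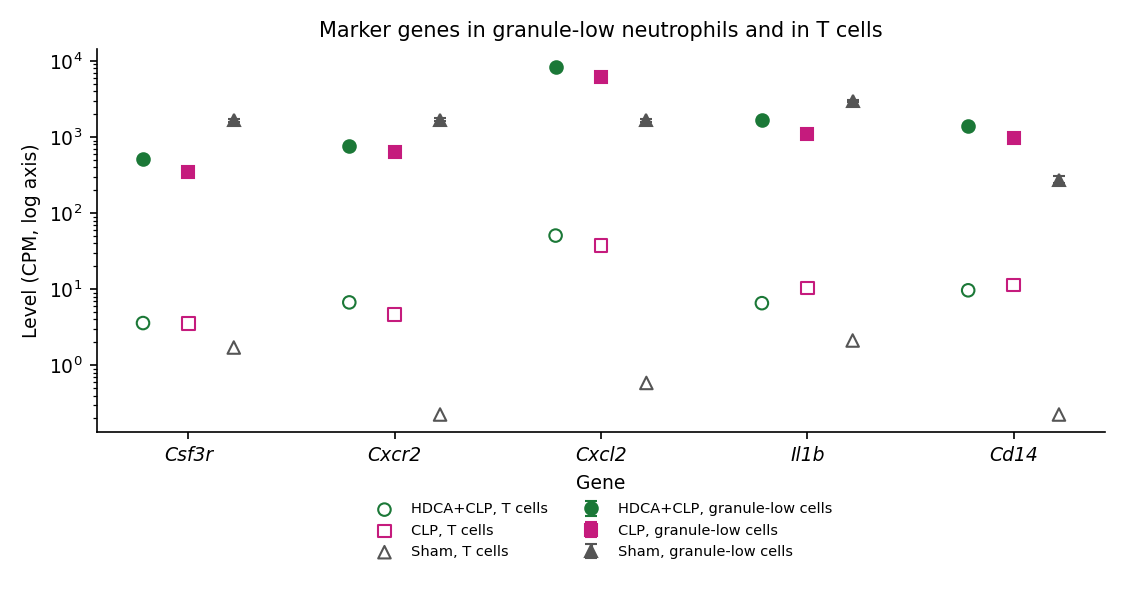
Levels of Csf3r, Cxcr2, Cxcl2, Il1b and Cd14 in CPM on a log axis, with filled symbols for granule-low cells (bars are 95% Poisson intervals), open symbols for T cells of the same library, and 1 symbol shape per library. Sham has the highest filled symbol for Csf3r, Cxcr2 and Il1b, and HDCA+CLP for Cxcl2 and Cd14.

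Shares of cells at equal depth gave the same orders for Cxcl2, Il1b and Cd14. Each cell was thinned at random to 1000 UMIs, which left out 15 HDCA+CLP, 18 CLP and 2 Sham cells with fewer. Cxcl2 was then found in 96.4% of HDCA+CLP cells, 85.9% of CLP cells and 49.1% of Sham cells, against 99.2%, 93.5% and 69.5% before thinning. Thinned T cells had it in 4.81% of HDCA+CLP, 2.505% of CLP and 0.0317% of Sham cells. Cd14, the lipopolysaccharide co-receptor, was found in 69.4%, 59.1% and 20.9% of the thinned granule-low cells of HDCA+CLP, CLP and Sham, against 94.04%, 88.8% and 49.1% before thinning. Il1b was found in 61.2% of HDCA+CLP, 48.6% of CLP and 79.5% of Sham cells, against 85.2%, 68.1% and 88.98% before thinning. Thinned T cells had Cd14 in at most 0.867% and Il1b in at most 0.6101% of cells in any library. All 3 genes were found together at 1000 UMIs in 44.6% of HDCA+CLP cells, 33.4% of CLP cells and 9.83% of Sham cells, and none of them in 1.84%, 9.38% and 12.8%.

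Cells rich in the 3 genes were defined by at least 0.2% of UMIs, and at least 3 UMIs, from Cxcl2, Il1b and Cd14 together. They were 1586 of the granule-low cells in HDCA+CLP, or 96.4% (95.4% to 97.3%), 432 in CLP, or 78.4% (74.7% to 81.8%), and 186 in Sham, or 78.8% (73.04% to 83.8%). The intervals of CLP and Sham overlapped at this limit, which is a range in a continuous share: 13, 21 and 11 cells lay between 0.18% and 0.22%. At 0.5% of UMIs they still overlapped, at 62.4% (58.2% to 66.5%) in CLP and 52.1% (45.5% to 58.6%) in Sham. A limit of 1%, chosen after the data were seen, separated them. At least 1% of UMIs came from the 3 genes in 57.9% (55.4% to 60.3%) of HDCA+CLP cells, 39.8% (35.6% to 43.97%) of CLP cells and 16.9% (12.4% to 22.4%) of Sham cells. The median cell had 1.13% in HDCA+CLP, 0.755% in CLP and 0.522% in Sham of UMIs from the 3 genes. What the sum was made of differed as well, in counts of transcript ends that do not depend on transcript length. Cxcl2 gave 73.2% in HDCA+CLP, 75.01% in CLP and 33.8% in Sham of the UMIs of the 3 genes, and Il1b gave 14.6%, 13.4% and 60.6%. The sum in Sham was therefore mainly Il1b, and the sum in both CLP libraries mainly Cxcl2.

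Within HDCA+CLP and CLP the 3 genes were lower in cells with more granule transcript, apart from some bins under 0.5%. In HDCA+CLP, Cxcl2 stood at 10581 CPM in cells with under 0.1% of granule transcripts, 10127 at 0.1% to 0.25%, 8645 at 0.25% to 0.5% and 6348 at 0.5% to 1%. Beyond the limit of the rule it stood at 4996 at 1% to 2%, 2367 at 2% to 5% and 1042 at 5% or more. Cxcl2 stood at 6193 just inside it, at 0.8% to 1%, and 5597 just outside, at 1% to 1.2%, in HDCA+CLP, and at 4221 and 2966 in CLP. Cd14 stood at 1159 and 1186 in HDCA+CLP and at 1108 and 795 in CLP on the same sides. Il1b had the wider range, with 2675 in the HDCA+CLP cells with least granule transcript and 29.4 in those with most. Cd14 had the narrower, with 1504 and 328, and its highest level, 1689, was at 0.1% to 0.25%. In CLP, Cxcl2 stood at 9013, 7031, 4877, 2901, 1408 and 374 in the 6 bins above 0.1%, in that order. These levels share libraries and totals with the genes that set the bins, so they describe the cells and are no test.

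The CLP bin with the least granule transcript broke this order. Its 86 cells had Cxcl2 at 6566, Il1b at 1334 and the neutrophil gene Retnlg at 3068, all below the next bin. They had Chil3, which is abundant in classical monocytes and in granule-rich neutrophils, at 6690 against 1435 in the next bin. Marker-mixed cells were 32 of 350 cells (9.14%) of this bin in HDCA+CLP, 31 of 86 (36.05%) in CLP and 30 of 217 (13.8%) in Sham. Without them the remaining 55 CLP cells had Cxcl2 at 15920, Il1b at 3868, Cd14 at 1513 and Chil3 at 330.1.

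Setting the libraries side by side at equal granule share changed some of the comparisons. Under 0.1%, Cxcl2 stood at 10581 in HDCA+CLP and 6566 in CLP, a log2 ratio of 0.69 (0.64 to 0.73). Without marker-mixed cells it stood at 12538 in HDCA+CLP and 15920 in CLP, and the ratio was -0.34 (-0.40 to -0.29). At 0.1% to 0.25% the Cxcl2 ratio was 0.17 with and -0.09 without these cells, at 0.25% to 0.5% it was 0.30 and 0.11, and at 0.5% to 1% it was 0.38 and 0.32. In granule-rich cells the ratio was larger, at 0.78 and 0.66 for 1% to 2%, 0.75 and 0.77 for 2% to 5%, and 1.48 and 1.46 at 5% or more. Il1b had ratios of 1.00 with and -0.28 without marker-mixed cells under 0.1%, 0.57 and 0.45 at 0.5% to 1%, and 1.13 and 1.11 at 5% or more. Without marker-mixed cells, Cxcl2 and Il1b were thus lower in HDCA+CLP than in CLP below 0.25% of granule transcripts and higher in each bin above it. Cd14 was higher in HDCA+CLP in all 4 granule-low bins, at ratios of 0.22, 0.54, 0.21 and 0.25 without marker-mixed cells.

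Of the 236 granule-low Sham cells 217 had under 0.1% of granule transcripts. In that bin Cxcl2 stood at 6566 in CLP and 1845 in Sham, and Cd14 at 625 in CLP and 289.6 in Sham. Il1b stood at 1334 in CLP and 3364 in Sham, a log2 ratio of -1.33 (-1.44 to -1.23). Without marker-mixed cells Il1b stood at 3868 in 55 CLP cells and 3956 in 187 Sham cells, a log2 ratio of -0.03 (-0.15 to 0.08). Cxcl2 stood at 15920 and 2139 in the same cells of CLP and Sham, a ratio of 2.90 (2.81 to 2.98). Under 0.1% the lower Il1b of CLP was therefore not detectable in cells without other markers, and the higher Cxcl2 was. At 0.1% to 0.25% there were 91 CLP cells and 10 Sham cells, and here Il1b went the other way. It stood at 2076 in CLP and 155 in Sham, a log2 ratio of 3.75 (2.90 to 4.75), and Cxcl2 stood at 9013 in CLP and 478 in Sham. Marker-mixed cells were 3 of these 10 Sham cells and 13 of the 91 CLP cells, and no ratio without them was computed.

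**Figure D3:**
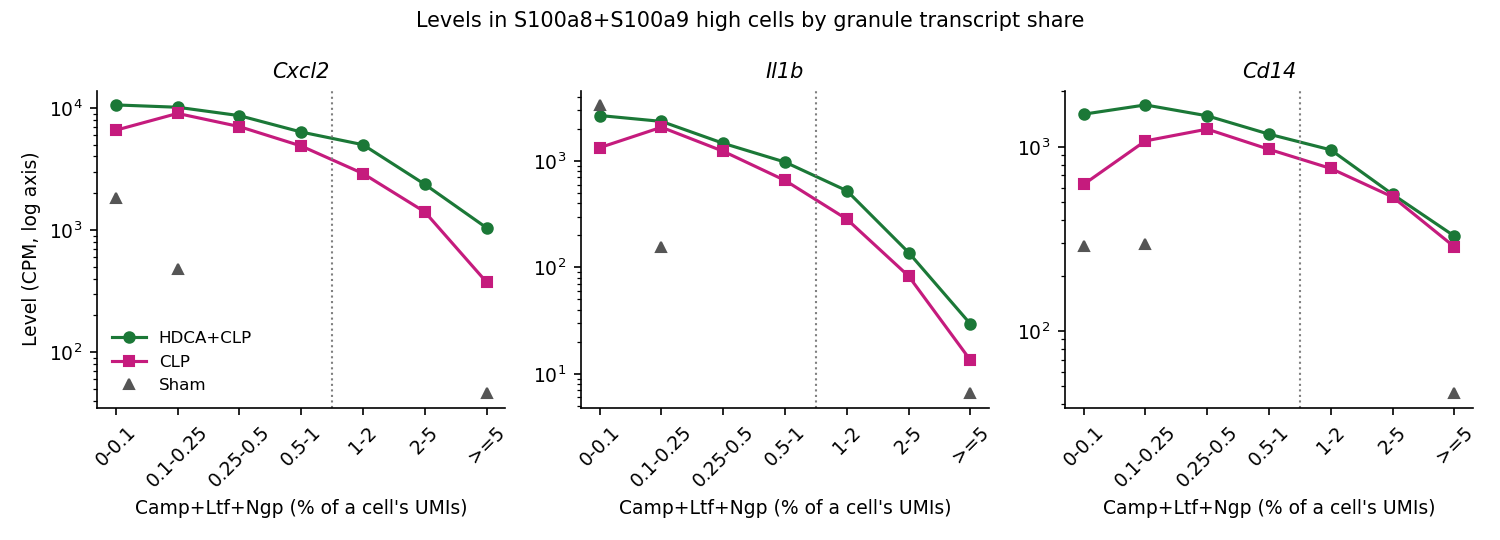
Levels of Cxcl2, Il1b and Cd14 in CPM (log axis) in S100a8 and S100a9 high cells, by the percent of a cell's UMIs from Camp, Ltf and Ngp, with 1 colour and symbol per library and a dotted line at the 1% limit. Cxcl2 in HDCA+CLP is 10581 in the leftmost bin and 1042 in the rightmost, and the leftmost CLP bin lies below its neighbour for all 3 genes. Bins of fewer than 10 cells are not drawn.

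Rich and other granule-low cells of 1 library differed in more than the 3 genes that split them. A call here needed 50 UMIs, a 2-fold ratio and an interval that left out 0 on the log2 scale. In HDCA+CLP the chemokine gene Cxcl3 stood at 306 CPM in rich cells and 15.1 in the others, Il1rn, the interleukin-1 receptor antagonist, at 793 and 84.8, and the antiprotease gene Stfa1 at 221 and 20.7. Of 16 cytokine and chemokine genes tested besides Cxcl2 and Il1b, 7 were called higher in rich cells, with a median log2 ratio of 0.50, where 6.46% of all 6627 genes tested were called higher and the median was -0.37. In CLP the count was 7 of 12 (median 1.38), where 5.38% of 4967 genes were (median -0.22). The CLP rich cells had Ccl3, a chemokine for monocytes and T cells, at 709 against 92.6 in the other cells, and Il10, the anti-inflammatory cytokine, at 132 against 2.83. In Sham the count was 4 of 7 (median 1.07), where 7.61% of 2483 genes were (median 0.17). Leading genes of the Sham rich cells were the early growth response gene Egr1, at 386 against 89.4, Ptgs2, at 111 against 16.8, and Ifitm1, an interferon-inducible membrane gene, at 7666 against 2520.

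NF-kappaB genes and stefins also stood apart between these cells. NF-kappaB genes were called higher in rich cells for 9 of 24 in HDCA+CLP, 14 of 23 in CLP and 8 of 13 in Sham. Of all genes, 6.46%, 5.38% and 7.61% were called higher in the same libraries. Lower calls of NF-kappaB genes numbered 0 in each library, where 27.7%, 21.4% and 7.25% of all genes were called lower. Stefins, small inhibitors of cathepsin proteases, were called higher for 6 of 8 in HDCA+CLP and 6 of 8 in CLP. In Sham 0 of 8 stefins were called higher and 3 lower, beside the shares over all genes given above. Counts over lists in rich against other cells were not repeated without marker-mixed cells.

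The granule-low cells that were not rich carried genes of other cells and stages. In HDCA+CLP the primary granule gene Mpo stood at 0.823 CPM in rich cells and 94.2 in the others, and the histone gene Hist1h1b at 6.23 and 188. In CLP the cell division genes Birc5, Top2a and Mki67 stood at 3.77, 2.93 and 6.702 in rich cells and 93.5, 77.5 and 124 in the others. In Sham the monocyte genes F13a1 and Ly6c2 stood at 6.04 and 83.3 in rich cells and 215 and 626 in the others. Of the monocyte list, 11 of 13 genes were called lower in rich cells in HDCA+CLP, where 27.7% of all genes were. The same count was 11 of 13 in CLP, where 21.4% were, and 4 of 6 in Sham, where 7.25% were. Cells with 3 or more UMIs of other cell types, of primary granule genes or of cell division genes were 26 of 59 cells that were not rich in HDCA+CLP (44.1%), 41 of 119 in CLP (34.5%) and 11 of 50 in Sham (22%). They were 6.56%, 11.3% and 11.8% of rich cells. Without marker-mixed cells the log2 ratio of rich over other cells was -0.46 (-3.80 to 5.16) in place of -4.21 for Mki67 in CLP and -0.88 in place of -4.67 for Chil3 in Sham. That of Cxcl3 was 3.32 in place of 4.34 in HDCA+CLP and 4.76 in place of 5.83 in CLP. Il1rn was at 1.92 in place of 3.22 in HDCA+CLP and 2.21 in place of 2.83 in CLP, and in CLP Ccl3 was at 3.96 in place of 2.94 and Il10 at 4.74 in place of 5.54. Without those cells Mpo and Hist1h1b in HDCA+CLP, Birc5 and Top2a in CLP and F13a1 in Sham had at most 3 UMIs in rich cells and at most 3 in the others, so no ratio is given.

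The comparison of CLP over Sham asks how granule-low neutrophils in blood after CLP differ from those after Sham. Under 0.1% of granule transcripts lay 217 of 236 Sham cells and 86 of 551 CLP cells. The genes below were not compared at equal granule share, so differences with CLP and with granule share cannot be told apart here. Type I interferon, interferon-γ and major histocompatibility complex (MHC) class I genes were higher in CLP, as were most NF-kappaB and acute phase genes, and immediate early genes and stefins were mostly lower. Genes needed 50 UMIs over both libraries, and a call needed a 2-fold ratio and an interval that left out 0. Of 5732 genes tested, 969 (16.9%) were called higher and 620 (10.8%) lower in CLP, and the median log2 ratio was 0.07. Without marker-mixed cells 576 of 4157 genes (13.9%) were called higher and 571 (13.7%) lower.

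Among secreted products, the acute phase gene Orm1 stood at 1254 CPM in HDCA+CLP, 1008 in CLP and 1.69 in Sham. It came from 2 cells in Sham, while T cells of the libraries had at most 9.75, and its log2 ratio of CLP over Sham was 9.22 (7.37 to 12.27), and 10.20 (7.72 to 15.50) without marker-mixed cells. Saa3, another acute phase gene, stood at 5846, 5222 and 34.6 in HDCA+CLP, CLP and Sham, with a ratio of 7.24 (6.80 to 7.72), and 10.46 without. Granule-rich cells of CLP had Orm1 at 976 and Saa3 at 415 CPM. Over the list of acute phase and metallothionein genes, 6 of 10 were called higher and 1 lower (median 1.42), where 16.9% and 10.8% of all genes were. Ccl3 stood at 313 in HDCA+CLP, 519.5 in CLP and 24.4 in Sham, a log2 ratio of CLP over Sham of 4.41 (3.88 to 4.99). Cxcl3, a close relative of Cxcl2, stood at 289, 187 and 7.59 in the same libraries, and the ratio was 4.62 (3.69 to 5.76). Tnf, the cytokine tumour necrosis factor, stood at 127, 127 and 6.75, with a ratio of 4.24 (3.25 to 5.46). The metallothionein gene Mt1, which binds zinc, stood at 132, 229 and 9.28, with a ratio of 4.63 (3.78 to 5.63).

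Il10 and Cxcl10 had no UMI in the Sham cells. Il10 was found in 77 HDCA+CLP and 59 CLP cells, at 14.4 and 91.99 CPM, while T cells had at most 2.51. Against a floor of 3 UMIs over the Sham cells, the log2 ratio of CLP over Sham was at least 5.18, and the counting interval of the ratio began at 4.88. Cxcl10, an interferon-induced chemokine, was found in 57 CLP cells, at 69.4 CPM, and T cells of the CLP library stood at 68.4, so that its level in granule-low cells was close to that in T cells. Against the same floor its log2 ratio of CLP over Sham was at least 4.78, with an interval that began at 4.47, and at least 4.14 without marker-mixed cells. Some leading genes came from few cells. Saa1, an acute phase gene, had 62.1 CPM in CLP but was found in 3 of 551 cells. The secreted matrix protein gene Spp1 had 112 from 34 cells, and its log2 ratio of CLP over Sham was 3.09 without marker-mixed cells in place of 7.05.

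Other secreted products were lower in CLP. The chemokine gene Ccl6 stood at 176 in HDCA+CLP, 109 in CLP and 1852 in Sham, with a log2 ratio of CLP over Sham of -4.08 (-4.24 to -3.92). Il15, a growth factor for NK and T cells, stood at 2.33, 3.48 and 51.4 in the same libraries, a ratio of -3.88 (-4.91 to -2.98). The adipokine gene Retn stood at 2.77, 0.871 and 58.2, with 3 UMIs in CLP and a ratio of -6.06 (-8.38 to -4.46). Over the list of cytokines and chemokines, 8 of 16 genes tested were called higher and 5 lower in CLP, where 16.9% and 10.8% of all genes were. The median log2 ratio of the list was 1.30.

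Genes of NF-kappaB signalling, which links microbial sensing to inflammatory transcription, were called higher in CLP for 14 of 25 and lower for 4 (median 1.18). Of all genes, 16.9% were called higher and 10.8% lower. Sod2, the mitochondrial superoxide dismutase, stood at 805 in HDCA+CLP, 894 in CLP and 19.4 in Sham, a log2 ratio of CLP over Sham of 5.53 (4.94 to 6.19). The adaptor gene Traf1 stood at 249.8, 164 and 20.2 in the same libraries (3.02, interval 2.43 to 3.67) and the feedback gene Tnip1 at 263, 203 and 29.5 (2.78, interval 2.29 to 3.31). The kinase gene Ikbke, outside the list, stood at 252, 169.8 and 8.43 (4.33, interval 3.44 to 5.40). Ptgs2 went the other way, at 3.99, 4.93 and 82.6 (-4.07, interval -4.90 to -3.31). Among genes that sense microbes, 3 of 19 were called higher, near the 16.9% of all genes, and 1 lower (median -0.02). Irak3, an inhibitor of that pathway, stood at 369, 292 and 50.6 (2.53, interval 2.15 to 2.93). Tlr4, the lipopolysaccharide receptor, stood at 27.4, 25.8 and 26.1, and no difference was detectable at this depth, with an interval of -0.62 to 0.62.

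Interferon-induced genes were higher in CLP almost throughout. Of 32 type I interferon response genes tested, 25 were called higher and 1 lower, with a median log2 ratio of 1.97, where 16.9% and 10.8% of all genes were. Ifit1, which binds viral RNA, stood at 216 CPM in HDCA+CLP, 201 in CLP and 13.5 in Sham (3.90, interval 3.19 to 4.71), and Rsad2, an antiviral enzyme, at 271, 264 and 26.1 (3.33, interval 2.82 to 3.90). Zbp1, a sensor of nucleic acids, stood at 419, 505 and 41.3 (3.61, interval 3.20 to 4.05). The gene called lower was Ifitm1, at 3888, 2758 and 6113 (-1.15, interval -1.19 to -1.10). Without marker-mixed cells its ratio of -0.98 was short of 2-fold. In that setting 27 of the 32 genes were called higher and 0 lower, where 13.9% and 13.7% of all genes were.

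Of 17 interferon-γ response genes, 13 were called higher and 0 lower in CLP (median 1.75). Among them the GTPase gene Irgm1 stood at 97.99 in HDCA+CLP, 159 in CLP and 10.96 in Sham (3.86, interval 3.07 to 4.78). Cd274, the checkpoint ligand PD-L1, stood at 48.4, 99.2 and 10.96 (3.18, interval 2.38 to 4.10). Of 18 genes of MHC class I presentation, 15 were called higher and 0 lower (median 1.98). Both lists stood beside 16.9% of all genes called higher and 10.8% called lower. The class I gene H2-Q7 stood at 320.2, 358 and 43.01 (3.06, interval 2.65 to 3.49), a level that T cells exceeded in each library, with 666, 683 and 376. Without marker-mixed cells the ratios of Ikbke, Traf1, Irgm1 and H2-Q7 were larger, at 5.94, 4.0, 4.95 and 5.56.

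Immediate early genes switch on within minutes of a stimulus and also during cell handling. They were lower in CLP for 9 of 17 and higher for 1 (median -1.35). Fos stood at 460.2 CPM in HDCA+CLP, 254 in CLP and 1556 in Sham, and Egr1 at 49.3, 20.3 and 297. Their log2 ratios of CLP over Sham were -2.62 (-2.73 to -2.50) and -3.87 (-4.26 to -3.50). The gene called higher was Nr4a1, a nuclear receptor, at 245, 209.8 and 35.4 (2.57, interval 2.12 to 3.05). Of the stefins, 5 of 8 were called lower and 1 higher (median -1.27). Both lists stood beside 10.8% of all genes called lower and 16.9% called higher. Stfa2l1 stood at 739, 362 and 908 (-1.33, interval -1.45 to -1.21). The stefin gene BC100530 had 424 CPM in Sham from 15 of 236 cells. Stefin genes are near copies of each other, and the labels do not say how reads that fit several copies were counted.

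Surface and adhesion genes included several that were lower in CLP. Jaml, an adhesion molecule, stood at 22.3 in HDCA+CLP, 18.9 in CLP and 344 in Sham (-4.19, interval -4.59 to -3.81), and the signal-regulatory gene Sirpb1b at 15.7, 10.4 and 209 (-4.32, interval -4.87 to -3.81). St8sia4, an enzyme that adds polysialic acid, stood at 9.85, 13.3 and 271 (-4.34, interval -4.82 to -3.89). The related gene Sirpb1c, Prr5l, a partner of the mTOR complexes, and Dck, the deoxycytidine kinase, had ratios of -3.66, -4.28 and -3.55, and that of Sirpb1c was -5.47 without marker-mixed cells. Of 18 trafficking and adhesion genes, 4 were called higher and 7 lower (median -0.11), where 16.9% and 10.8% of all genes were. Cxcr4, the receptor that holds neutrophils in marrow and brings aged ones back, stood at 25.02, 40.05 and 166 (-2.05, interval -2.38 to -1.73). The integrin gene Itgal stood at 102, 85.9 and 371 (-2.11, interval -2.33 to -1.90). Icam1, an adhesion ligand, stood at 42.9, 54.9 and 8.43 (2.70, interval 1.79 to 3.79, and 5.39 without marker-mixed cells). The ratios of Jaml and St8sia4 without those cells were -5.20 and -5.27.

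The comparison of HDCA+CLP over CLP asks what differed when HDCA was given with CLP. It shares the CLP library with the comparison of CLP over Sham, so an odd value in CLP would enter both with opposite signs. Granule share differed here too, with 558 of 1645 HDCA+CLP cells and 262 of 551 CLP cells at 0.5% to 1%. The genes below were not compared at equal granule share. Calls used a 1.5-fold limit. Of 7423 genes tested, 241 (3.25%) were called higher and 1443 (19.4%) lower in HDCA+CLP, with a median log2 ratio of -0.17. Marker-mixed cells, 7.78% of the cells in HDCA+CLP and 16.3% in CLP, weighed on these counts. Without them 220 of 6103 genes (3.6%) were called higher and 414 (6.78%) lower, and the median was -0.06. Median-of-ratios size factors gave 503 genes called higher and 922 lower. Lists of other cell types moved as well. All 9 T cell genes, all 8 NK cell genes, 7 of 14 monocyte genes and 11 of 13 cell division genes tested were called lower in HDCA+CLP, and all 5 erythroid genes tested were called higher.

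Of the 23 neutrophil identity genes, 3 were called higher and 0 lower in HDCA+CLP, and 1 and 0 without marker-mixed cells. Over all genes 3.25% were called higher and 19.4% lower, and 3.6% and 6.78% without marker-mixed cells. G0s2, an inhibitor of fat breakdown, stood at 512 CPM in HDCA+CLP, 192 in CLP and 320.4 in Sham. Its log2 ratio of HDCA+CLP over CLP was 1.42 (1.30 to 1.54), and 1.16 without marker-mixed cells. Ly6g, the standard surface antigen of mouse neutrophils, stood at 348, 178 and 214 in the same libraries (0.97, interval 0.84 to 1.10, and 0.74 without). Its relative Ly6i stood at 134, 52.2 and 9.28 (1.36, interval 1.14 to 1.60, and 1.39 without). Marcksl1, an actin regulator, stood at 434, 190.4 and 54.8 (1.19, interval 1.07 to 1.31, and 1.08 without), and the secreted kinase gene Fam20c at 106, 48.5 and 1.69 (1.13, interval 0.89 to 1.38, and 0.90 without). The metalloreductase gene Steap4 and Id1, an inhibitor of DNA binding, had ratios of 1.25 and 1.08, and 0.99 and 0.93 without.

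Of 8 stefins tested, 6 were called higher and 1 lower in HDCA+CLP (median 0.84), and 4 and 1 without marker-mixed cells (median 0.59). Over all genes 3.25% were called higher and 19.4% lower, and 3.6% and 6.78% without marker-mixed cells. Stfa2l1 and Stfa2 had ratios of 1.03 (0.94 to 1.12) and 1.25 (1.03 to 1.48), and 0.73 and 0.97 without. Of 19 immediate early genes, 5 were called higher and 1 lower (median 0.36), where 3.25% and 19.4% of all genes were. Egr1 had a ratio of 1.28 (0.91 to 1.66) and Fos one of 0.86 (0.75 to 0.96). Both were below Sham also in HDCA+CLP, with Fos at 460.2 CPM in HDCA+CLP and 1556 in Sham, and Egr1 at 49.3 and 297.

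Genes called lower in HDCA+CLP fell into some that depended on the marker-mixed cells and some that did not. Spp1 stood at 4.98 in HDCA+CLP, 112 in CLP and 0.843 in Sham, a log2 ratio of HDCA+CLP over CLP of -4.49 (-4.97 to -4.04) and -2.02 without those cells. The ratios of S100a10, an annexin partner, Tmsb10, an actin-binding peptide, and the monocyte gene F13a1 were -1.50, -1.35 and -1.40, and -0.53, -0.57 and -0.67 without. None of the 3 was then called, S100a10 and Tmsb10 being short of 1.5-fold and the interval of F13a1 being -1.37 to 0.06. Il10 did not depend on them. It stood at 14.4 in HDCA+CLP, 91.99 in CLP and 0 in Sham, from 77, 59 and 0 cells, and its ratio was -2.68 (-2.98 to -2.38), and -3.06 without marker-mixed cells. Saa1 had a ratio of -2.03 (-2.35 to -1.72), which rested on 22 HDCA+CLP cells and 3 CLP cells. The histone gene Hist1h2ap and the genes Ybx3, Nme1 and Erh, which act in nucleic acid binding, nucleotide supply and RNA processing, had ratios of -2.09, -1.73, -1.60 and -1.56, and -1.77, -1.63, -1.73 and -0.90 without.

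Among chemokines, Ccl4 stood at 126 CPM in HDCA+CLP, 311 in CLP and 59.9 in Sham (-1.30, interval -1.42 to -1.18, and -1.52 without marker-mixed cells). Cxcl10 stood at 28.7, 69.4 and 0 (-1.27, interval -1.53 to -1.01, and -1.58 without), and Ccl3 at 313, 519.5 and 24.4 (-0.73, interval -0.82 to -0.65, and -0.93 without). Ccl6 was higher in HDCA+CLP, with a ratio of 0.68 (0.52 to 0.85) and 0.92 without. Il1rn stood at 751, 474 and 139 (0.66, interval 0.59 to 0.74), and without marker-mixed cells its ratio of 0.46 was short of 1.5-fold. Tnf stood at 127 in HDCA+CLP and 127 in CLP, with an interval of -0.16 to 0.16. Over the list, 5 of 18 cytokine and chemokine genes were called higher and 4 lower (median 0.06), where 3.25% and 19.4% of all genes were. Without marker-mixed cells 1 of 17 was called higher and 4 lower (median 0.19), where 3.6% and 6.78% of all genes were. In rich cells alone, where 3.68% of all genes were called higher and 7.63% lower, the ratio was -1.12 (-1.21 to -1.04) for Ccl3, -1.65 (-1.78 to -1.52) for Ccl4 and -3.10 (-3.41 to -2.81) for Il10. These 3 products were thus lower in rich cells of HDCA+CLP than of CLP.

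The lists of type I interferon and interferon-γ response genes parted in this comparison. Of 20 interferon-γ response genes, 12 were called lower and 0 higher in HDCA+CLP, with a median log2 ratio of -0.72, where 19.4% and 3.25% of all genes were. Without marker-mixed cells 10 of 15 were called lower and 0 higher (median -0.74), where 6.78% and 3.6% of all genes were. Size factors gave a median of -0.55 for the list. Igtp, a GTPase of the immunity-related family, stood at 48.8 in HDCA+CLP, 115 in CLP and 22.8 in Sham (-1.23, interval -1.43 to -1.03, and -1.29 without). Cd274 had a ratio of -1.04 (-1.24 to -0.83) and -1.28 without.

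Of 32 type I interferon genes, 5 were called higher and 2 lower in HDCA+CLP (median 0.05), where 3.25% and 19.4% of all genes were. Without marker-mixed cells 3 were called higher and 5 lower (median -0.09), where 3.6% and 6.78% of all genes were. Ifi27l2a stood at 2552 in HDCA+CLP, 1391 in CLP and 445 in Sham (0.88, interval 0.83 to 0.92, and 0.84 without). Isg15, a ubiquitin-like modifier, stood at 1044, 619.6 and 126 (0.75, interval 0.68 to 0.82), and without marker-mixed cells its ratio of 0.53 was short of 1.5-fold. Cmpk2, another type I interferon gene, was lower, at a ratio of -0.91 (-1.16 to -0.66) and -1.16 without marker-mixed cells. Ifit1 had an interval of -0.02 to 0.23. Of 18 genes of MHC class I presentation, 0 were called higher and 4 lower (median -0.19). That was near the 19.4% of all genes called lower and their median of -0.17. Of 27 nuclear genes of oxidative phosphorylation, 0 were called higher and 10 lower (median -0.47). Without marker-mixed cells 1 was called lower (median -0.23), where 6.78% of all genes were.

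**Figure D4:**
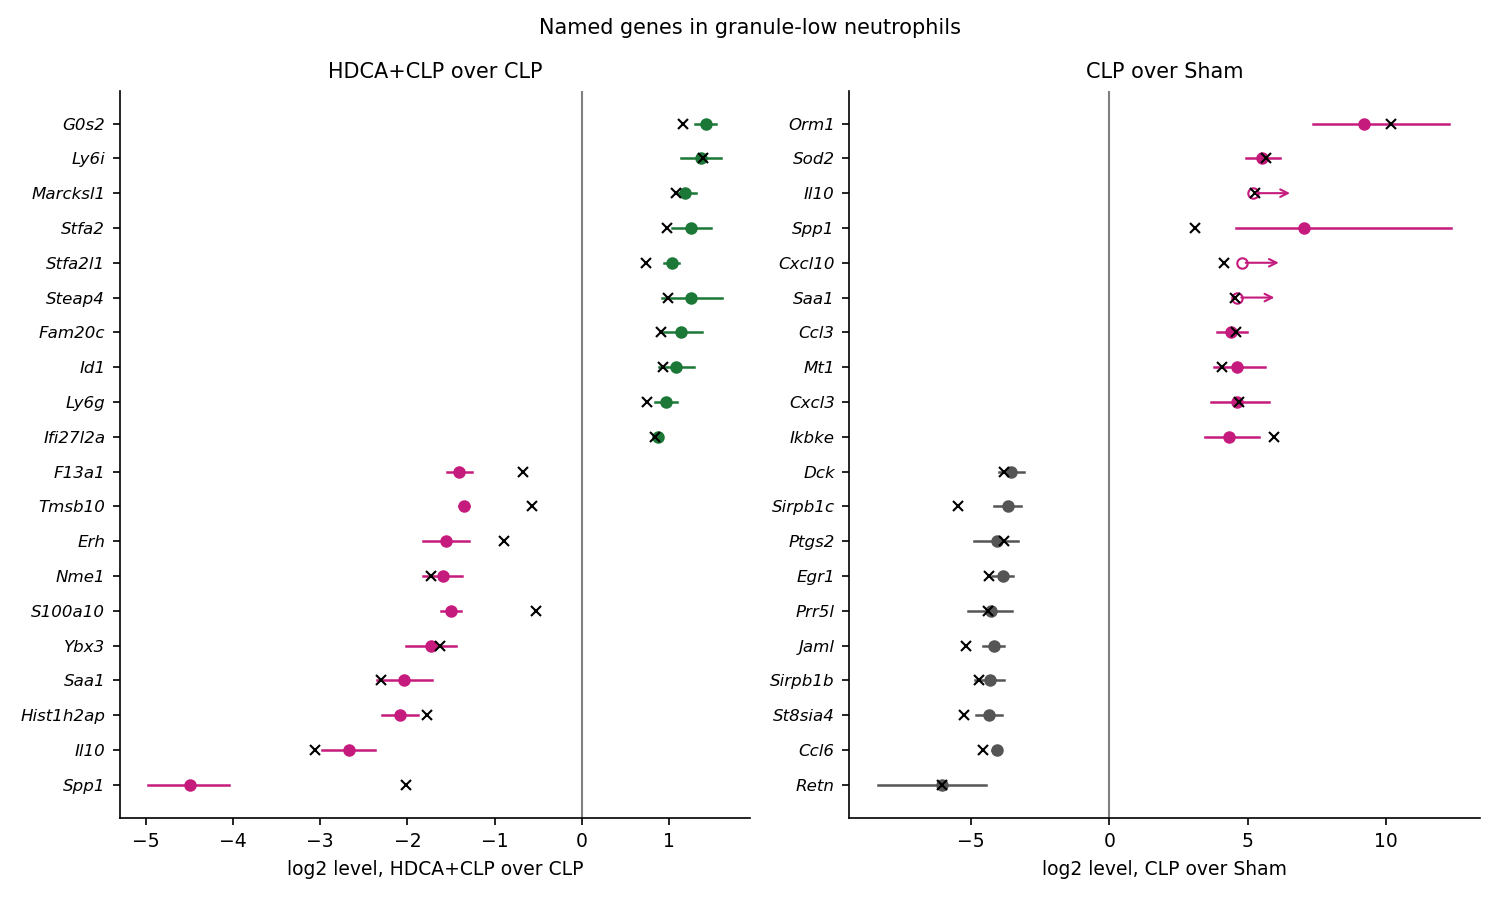
Log2 ratios of the genes named by rule, HDCA+CLP over CLP (left) and CLP over Sham (right), with 95% counting intervals as lines, open points with arrows for genes at 0 in Sham (set against a floor of 3 UMIs), and black crosses for the ratio without marker-mixed cells where it was computed. On the left S100a10 is at -1.50 and its cross at -0.53, while Il10 is at -2.68 and its cross at -3.06.

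**Figure D5:**
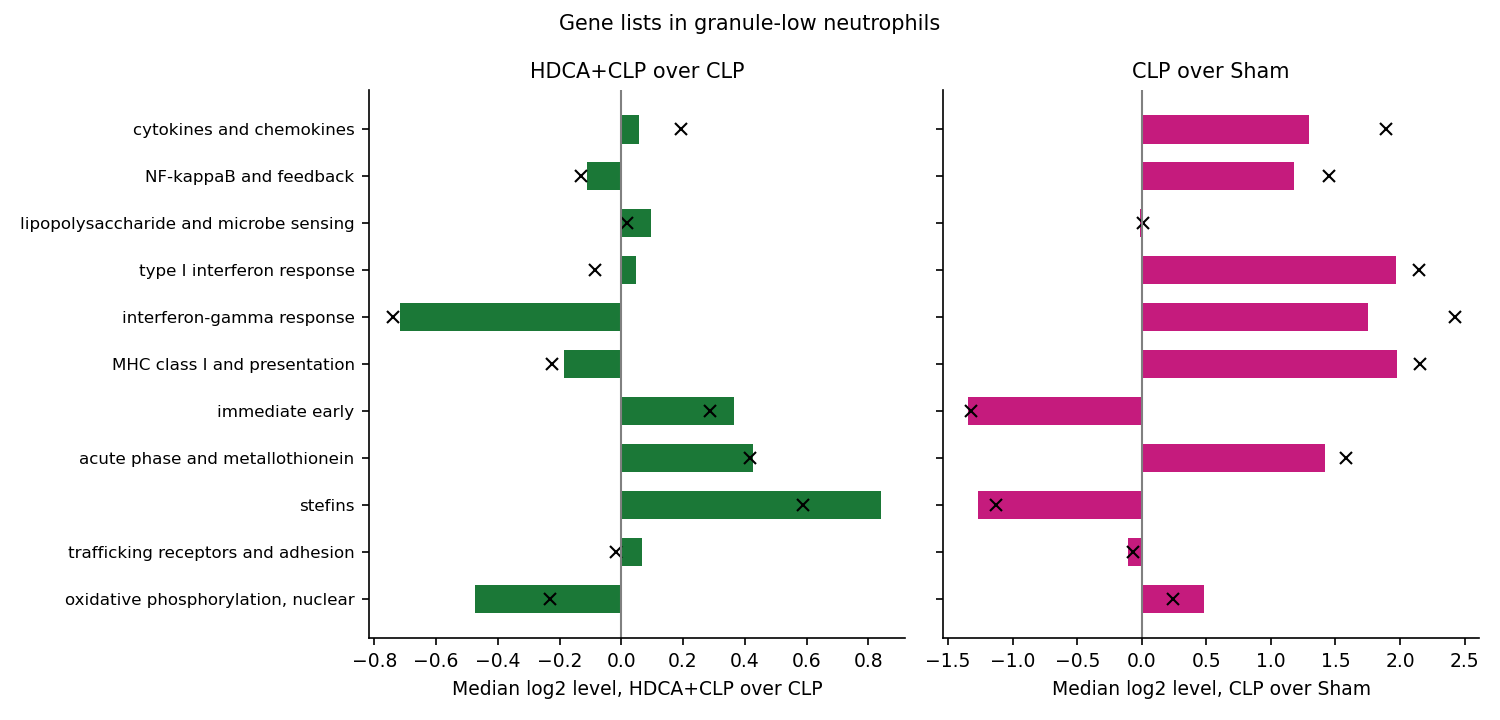
Median log2 ratio over the tested genes of 11 gene lists, HDCA+CLP over CLP (left) and CLP over Sham (right), as bars, with black crosses for the median without marker-mixed cells. The interferon-γ list is at -0.72 on the left and 1.75 on the right, and the type I interferon list at 0.05 and 1.97.

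Interferon-induced transcripts were spread unevenly among the cells. Cells with at least 0.2% of UMIs and at least 3 UMIs from 8 type I interferon genes were 607 of the granule-low cells in HDCA+CLP (36.9%, 34.6% to 39.3%), 170 in CLP (30.9%, 27.02% to 34.9%) and 7 in Sham (2.97%, 1.201% to 6.02%). These shares were not set at equal depth. Interferon-rich cells were a larger share of cells with at least 1% of UMIs from Cxcl2, Il1b and Cd14. That limit was chosen after the data were seen. In HDCA+CLP they were 46.4% (43.2% to 49.7%) of those cells and 23.8% (20.7% to 27.2%) of the rest. In CLP the shares were 43.8% (37.2% to 50.7%) and 22.3% (17.9% to 27.1%). In Sham they were 10% and 1.53%, or 4 and 3 cells.

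Granule-low cells were last set beside the granule-rich neutrophils of the same library, as a description, since granule genes made the split. In HDCA+CLP 14.2% of 9771 genes were called higher in granule-low cells and 3.12% lower at 2-fold, and in CLP 19.0% of 9242 were called higher and 2.14% lower. Il1b stood at 1666 in granule-low and 125 in granule-rich cells of HDCA+CLP (log2 ratio 3.74) and at 1109 in granule-low and 74.05 in granule-rich cells of CLP (3.90). Cxcl3 stood at 289 in granule-low and 24.03 in granule-rich cells of HDCA+CLP (3.59) and 187 in granule-low and 13.8 in granule-rich cells of CLP (3.76). Cxcr2 differed by less, at 774 in granule-low and 619 in granule-rich cells of HDCA+CLP and 643 in granule-low and 579 in granule-rich cells of CLP. Cytokine and chemokine genes were called higher in granule-low cells for 13 of 21 in HDCA+CLP and 13 of 20 in CLP, with 1 called lower in each. NF-kappaB genes were called higher for 17 of 26 in HDCA+CLP and 18 of 25 in CLP, and immediate early genes for 15 of 20 and 13 of 20, with 0 called lower. Lower in granule-low cells were Serpinb1a, an inhibitor of neutrophil proteases (-2.75 in HDCA+CLP and -2.35 in CLP), the sugar kinase gene Adpgk (-2.79 and -2.33) and the nuclear envelope gene Syne1 (-2.02 and -2.0). In CLP, S100a10, F13a1, Vcan and Prtn3 were among the leading genes, at ratios of 3.89, 3.69, 4.42 and 3.51. Marker-mixed cells were then left out of the granule-low side only, while granule-rich cells with such markers stayed in. S100a10 and Prtn3 turned round in that setting, to -0.82 (-1.39 to -0.31) and -2.69 (-4.97 to -1.13). F13a1 and Vcan lost the difference, at -0.55 (-1.17 to 0.01) and -0.75 (-2.22 to 0.39), whereas Il1b and Il10 stood at 4.37 and 4.27. These ratios were not computed with such cells left out of both sides.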

How the data were processed

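Single-cell RNA-seq libraries were made with a droplet 3′ kit (10x Genomics, version 3) from blood digested with hyaluronidase and DNase I, per the labels' protocols. Per the submitters' processing notes, Cell Ranger 5.0.1, Seurat 4.0.6 and R 4.0.3 were used with build mm39, and the notes do not give their roles or the gene annotation. Each library's deposited matrix held raw UMI counts of 31053 genes in its cell barcodes. The authors' cell types were not used here.

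Cells were kept at 500 UMIs, 200 genes and at most 10% mitochondrially encoded UMIs. UMIs were summed over the cells compared in a library and scaled to 1000000. Levels carry exact Poisson, ratios exact conditional binomial and shares exact Clopper-Pearson 95% intervals, which cover counting error only. With 1 library per group no test was made. A gene was called where it had 50 UMIs over both sides, a 2-fold ratio (1.5-fold for HDCA+CLP over CLP) and an interval excluding equality. The genes named were the 10 in each direction whose interval bound nearest 0 was largest, at 50 CPM or more and at least 20% of the level in the highest other marker-gated cell type, plus the extremes of each gene list. Predicted, ribosomal, haemoglobin, immunoglobulin and T cell receptor genes were left out. Some genes were named after their values were seen. T cells were gated on 2 or more UMIs of marker genes and under 1% S100a8 and S100a9. The other cell types were gated likewise, with monocytes at under 5%. No doublets were removed in the main values. Doublet scores came from simulated doublets, and 0.8% of a library per 1000 barcodes was called in an alternative. Scripts used Python 3.11.15, numpy 2.4.6, scipy 1.17.1, pandas 2.3.3, scikit-learn 1.9.0 and matplotlib 3.10.9, and the calling was tested on simulated data. The cells, gene lists and limits were chosen with earlier results of these data known.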

Additional observations from a re-analysis of the deposited data

How the results depend on the processing

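No paired analysis was possible because there was 1 library per group. The limits of depth lie with the 236 Sham cells and their 1185885 UMIs. Shares are given as HDCA+CLP, CLP and Sham in order where all 3 are given. Of 99 alternative values for shares and counts of called genes, 41 moved past the counting interval or by over 1.5 times. Of 2156 for single genes 5 turned round, and of 734 for medians of gene lists 2 did. The granule-low share of cells kept was 5.58% in CLP and 5.09% in Sham at a mitochondrial limit of 5%, and 12.6%, 4.25% and 2.95% without marker-mixed cells. It was 13% in HDCA+CLP and 4.62% in CLP at 10% of S100a8 and S100a9, 9.04% and 2.67% at under 0.5% of granule transcripts, where Sham at 3.35% was above CLP, and 21.7% and 11.3% at under 2%. The share of S100a8 and S100a9 high cells was 18.8% in HDCA+CLP without called doublets, and 16.2%, 8.68% and 79.3% without marker-mixed cells. It was 9.55% in CLP at 10% of S100a8 and S100a9, 11.6% in HDCA+CLP and 5.44% in CLP at under 0.5% of granule transcripts, and 27.8% and 23.04% at under 2%. The share rich in Cxcl2, Il1b and Cd14 was 97.8% in HDCA+CLP and 83.1% in CLP without marker-mixed cells, and 97.6% and 82.2% at 10% of S100a8 and S100a9. It was 97.8% and 87.2% at under 0.5% of granule transcripts and 91.6% and 66.6% at under 2%. At a limit of 0.1% of UMIs for the 3 genes it was 97.8%, 86.6% and 87.3%, at 0.5% it was 84.4%, 62.4% and 52.1%, and at 1%, chosen after the data were seen, 57.9%, 39.8% and 16.9%. With cells thinned to 1000 UMIs it was 82.9% in CLP. Genes called in HDCA+CLP over CLP numbered 1115 without called doublets, 634 without marker-mixed cells and 1017 at 10% of S100a8 and S100a9. In that comparison 14.3% of calls were higher, against 35.3% with median-of-ratios size factors and 34.7% without marker-mixed cells. In CLP over Sham 61.0% were higher, and 50.2% without marker-mixed cells. The median of cytokine and chemokine genes in CLP over Sham was -0.31 with no minimum beyond 1 UMI, and that of monocyte genes in HDCA+CLP over CLP was 0.29 without marker-mixed cells. In granule-low over granule-rich cells of CLP, marker-mixed cells were left out of the granule-low side only. F13a1 was then at -0.55, Prtn3 at -2.69, S100a10 at -0.82 and Vcan at -0.75. At 10% of S100a8 and S100a9, Prtn3 was at -0.79. The cause of the changes at other limits was not tested.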

Other observations

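Genes of survival, glucocorticoid response and sugar use were described over lists in the same granule-low cells. Of 19 genes of the BCL2 family and cell death, 4 were called higher and 2 lower in CLP over Sham (median 0.64), near the 16.9% and 10.8% of all genes. The survival gene Bcl2a1b stood at 60.3, 54.3 and 12.7 CPM in HDCA+CLP, CLP and Sham, a log2 ratio of CLP over Sham of 2.10 (1.34 to 2.97), and Mcl1, which keeps neutrophils alive, at 1317, 1014 and 2117, a ratio of -1.06 (-1.14 to -0.99). Reads of Bcl2a1b and its near copies can be split by the counting. Of 17 glucocorticoid response genes, 5 were called higher and 5 lower (median -0.47), beside the same shares over all genes. Rgs2, a brake on G protein signalling, stood at 99.5, 83.6 and 384 (-2.20, interval -2.42 to -1.99), and the transcription factor gene Cebpd at 150.4, 97.5 and 609 (-2.64, interval -2.83 to -2.45).

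In HDCA+CLP over CLP, 3 of 20 glycolysis and hypoxia genes were called higher and 1 lower (median -0.06), where 3.25% and 19.4% of all genes were. Hk1, a hexokinase, stood at 69.2, 37.4 and 26.98 CPM in HDCA+CLP, CLP and Sham, a log2 ratio of HDCA+CLP over CLP of 0.89 (0.61 to 1.17). Cebpe, a transcription factor of late granulocyte maturation, stood at 37.9, 21.2 and 10.1 (0.84, interval 0.47 to 1.22). Of 11 receptors and targets of bile acids and sterols, 3 had enough UMIs to be tested, and 0 were called higher or lower at 1.5-fold. Among them Nr1h2, a sterol receptor, stood at 42.7, 45.9 and 58.2, with an interval of -0.37 to 0.17 for the log2 ratio.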
